A study of Mus musculus with 8 samples.

Results

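The Slc25a genes encode the mitochondrial solute carriers, and 47 of the 21755 protein-coding genes on chromosomes 1 to 19 and X carried a symbol of that form (Slc25a followed by a number) and were taken as the family. Open chromatin was measured by ATAC-seq, in which a transposase cuts accessible DNA, in 50000 nuclei per library from frozen livers of adult C57BL/6J mice (C57BL/6 in the labels). There were 4 control libraries, from mice that express Cre-recombinase, and 4 libraries from Alb-D2KO mice, in which floxed Dio2 was deleted by Cre under the albumin promoter. The study describes the inactivation as hepatocyte-specific, and deletion in the other cell types of the liver was not measured here. Dio2 encodes the type 2 deiodinase, the enzyme that makes active thyroid hormone (T3) from thyroxine, and the comparison asked what its absence in the liver leaves behind in adult chromatin. The data were 2 lists of regions, 8031 regions called open only in the control livers, named areas of reduced chromatin accessibility (RCAs) here, and 250 called open only in the Alb-D2KO livers. The libraries of each genotype had been pooled into 1 call, so no value below has an error between mice, no p-value could be computed, and the sequencing depth is unknown. In whole-liver nuclei, fewer nuclei with a region open and less opening in each nucleus cannot be told apart.

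Mitochondrial carriers are small membrane proteins built of repeated units that move metabolites across the inner mitochondrial membrane. They import and export ADP, ATP, phosphate, di- and tricarboxylates, amino acids, acyl-carnitines, nucleotides, cofactors and glutathione, and so link the cytosol to the citric acid cycle, fatty acid oxidation and the urea cycle. The liver depends on several of them for urea synthesis and for making glucose and fat. Thyroid hormone is known as a regulator of mitochondrial metabolism in the liver.

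An RCA overlapped the gene body or lay within 10 kb of it in 19 of the 47 Slc25a genes (40.4%, Wilson 95% interval 27.6 to 54.7%). Over all protein-coding genes the share was 25.3%, and among the 21708 other protein-coding genes, weighted to the lengths of the Slc25a genes, it was 25.7%. The interval treats genes as independent draws and covers counting error alone. An RCA can be called only where control liver was open, and regions open in both genotypes are not in the lists. In these shares, having an open region to lose and losing it therefore cannot be told apart. The lower end of the interval lay just above the share at the same lengths. With RCAs within 10 kb of a start alone, 13 Slc25a genes had an RCA (27.7%, 16.9 to 41.8%) against 20.8% at the same lengths, which lies inside the interval. Counting overlaps with the gene body alone, 13 Slc25a genes had an RCA (27.7%), against 15.8% of all protein-coding genes. An RCA whose nearest protein-coding start was the gene's own was found at 14 Slc25a genes (29.8%), against 18.5% of all protein-coding genes. An RCA that reached to within 200 bp of an annotated start of the gene was found at 3, Slc25a22, Slc25a25 and Slc25a39 (6.38%), which was close to the 5.99% of all protein-coding genes. In these 3 genes the RCA lay inside the gene, with its summit 4282, 33525 and 820 bp from the 5′ end of the gene record. For RCAs nearest to the gene's own start, the interval began at 18.65%, barely above the 18.63% of other genes at the same lengths. With each RCA given to its nearest start alone, the share of other genes was 18.8%, inside the interval.

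The larger gap was in genes with several RCAs. In all, 13 Slc25a genes had 2 or more RCAs within 10 kb (27.7%, Wilson 95% interval 16.9 to 41.8%), against 9.15% of all protein-coding genes and 8.80% of the other genes at the same lengths. The count includes Slc25a11, Slc25a20 and Slc25a44, whose RCAs were all nearest to another gene's start. Those of Slc25a11 and Slc25a20 were only 108 and 220 bp apart. Genes with 2 or more RCAs nearest to their own start were not compared. Of the 19 genes, 6 had a single RCA, 8 had 2, 4 had 3 (Slc25a22, Slc25a33, Slc25a42 and Slc25a45) and Slc25a25 had 4. Genes with 1 RCA were 12.8% of the family and 16.1% of the other protein-coding genes. An Alb-D2KO-only region lay within 10 kb of 0 of the 47 genes, an upper Wilson limit of 7.56%, against 1.02% of all protein-coding genes. The background share lies within the interval of the family. The nearest Alb-D2KO-only region was 37.5 kb from Slc25a32, the carrier of folate and FAD.

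**Figure D1:**
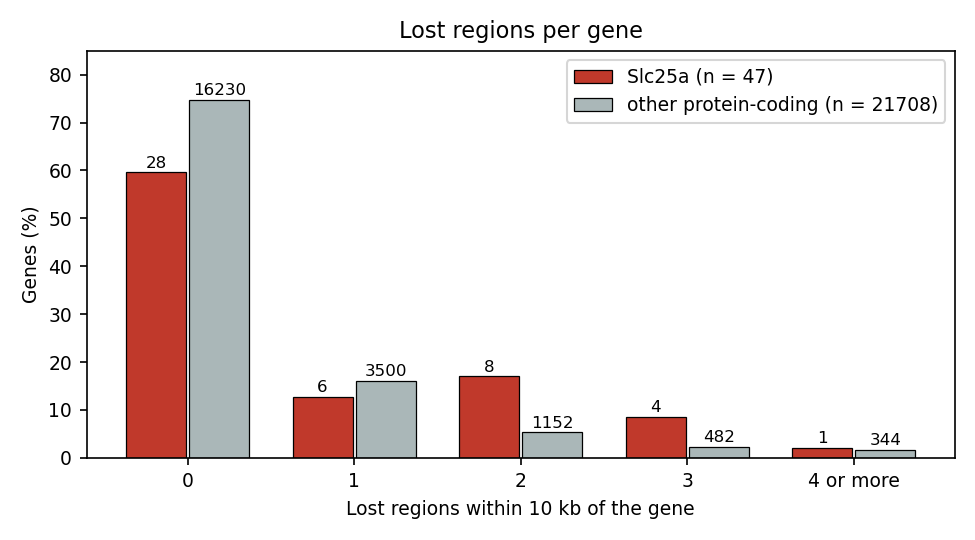
Share of genes (%, vertical axis) by the number of RCAs within 10 kb (horizontal axis), for the 47 Slc25a genes in red and the 21708 other protein-coding genes in grey. Numbers above the bars are gene counts, and the red bars stand above the grey bars from 2 RCAs upward.

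The most similar gene sets were compared in the same way. Other solute carrier genes (SLC families other than Slc25a) had an RCA within 10 kb at 109 of 314 genes (34.7%, Wilson 95% interval 29.7 to 40.1%), and 2 or more at 46 (14.6%). Protein-coding genes of their lengths had shares of 27.8% and 10.2%. The Slc25a interval of 27.6 to 54.7% held their share, and the intervals for 2 or more RCAs, which began at 16.9% for Slc25a and ended at 19% for other SLC genes, overlapped. Mitochondrial transport genes outside the family had an RCA at 14 of 21 (66.7%, Wilson 95% interval 45.4 to 82.8%, against 28.6% of protein-coding genes of their lengths). They had 2 or more at 10 (47.6%, 28.3 to 67.6%, against 10.6% at their lengths), so several RCAs per gene were not particular to Slc25a. Cpt1a and Cpt2, which attach long-chain fatty acids to carnitine and take them off again on either side of the inner membrane, had 4 and 3 RCAs with largest areas of 547 and 498. Slc8b1, the mitochondrial sodium and calcium exchanger, had 3 with a largest area of 607, and Mcu, the pore of the calcium uniporter, had 2. Mpc2, a subunit of the pyruvate carrier, had 2 and its partner Mpc1 had 0. None of the outer-membrane channel genes Vdac1, Vdac2 and Vdac3 had an RCA. The 5 genes of the carrier fold without the Slc25a symbol, the uncoupling proteins Ucp1, Ucp2 and Ucp3 and the carrier homologs Mtch1 and Mtch2, had 0. Among marker genes, 8 of 10 hepatocyte markers had an RCA within 10 kb (24.6% of other genes at their lengths), against 2 of 5 for endothelial cells (30.4%), 1 of 5 for cholangiocytes (21.8%), 1 of 5 for lymphocytes (21.7%) and 0 of 5 each for Kupffer (28.4%) and stellate cells (28.04%).

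**Figure D2:**
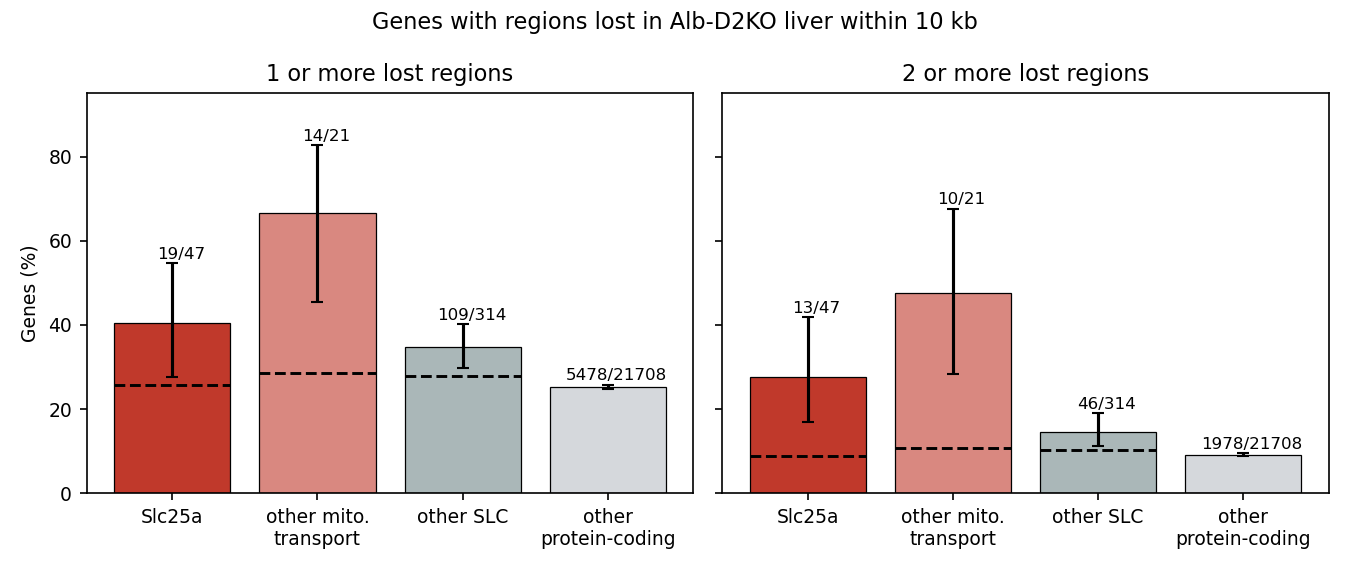
Share of genes (%, vertical axis) with 1 or more (left) and 2 or more (right) RCAs within 10 kb in 4 gene sets, with Wilson 95% intervals that cover counting error over genes only. The dashed line is the share of other protein-coding genes at the lengths of that set, and the Slc25a bars of 40.4% and 27.7% lie above their lines.

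By substrate, small groups of carriers are described here by their counts, to be read against the 25.3% of all protein-coding genes with an RCA. Of the 15 carriers of nucleotides, phosphate and cofactors, 4 had an RCA, close to that share. These were Slc25a23 and Slc25a25, which exchange ATP-magnesium for phosphate under the control of calcium, Slc25a33, which carries pyrimidine nucleotides, and Slc25a42, which carries coenzyme A. The main phosphate carrier Slc25a3 and the ADP/ATP carriers Slc25a4, Slc25a5 and Slc25a31 had none. Of the 9 amino acid carriers, 4 had an RCA, namely Slc25a13 (the aspartate/glutamate carrier of liver), Slc25a15 (the ornithine carrier of the urea cycle), Slc25a22 (a glutamate carrier) and Slc25a44 (a carrier of branched-chain amino acids). Slc25a12, the aspartate/glutamate carrier that prevails in brain and muscle, had none.

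Of the 4 di- and tricarboxylate carriers, Slc25a10 (dicarboxylates) and Slc25a11 (oxoglutarate and malate) had an RCA and the citrate carrier Slc25a1 and Slc25a21 had none. The carnitine-acylcarnitine carrier Slc25a20, the NAD carrier Slc25a51, the S-adenosylmethionine carrier Slc25a26, the glutathione carrier Slc25a39 and the uncoupling-protein-like Slc25a30 each had 1 or 2. The iron carriers of mitochondria, Slc25a28 and Slc25a37, had none, nor had Slc25a40, the close relative of Slc25a39. Of the 8 members of other or unknown substrate, 4 had an RCA, Slc25a34, Slc25a35, Slc25a45 and Slc25a47. The remaining members without one included Slc25a2, Slc25a14, Slc25a16, Slc25a17, Slc25a18, Slc25a24, Slc25a27, Slc25a29, Slc25a32, Slc25a36, Slc25a38, Slc25a41, Slc25a43, Slc25a46, Slc25a48, Slc25a53 and Slc25a54. Regions open in both genotypes are not in the lists, so a carrier without an RCA may have been open in both genotypes or closed in both.

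**Figure D3:**
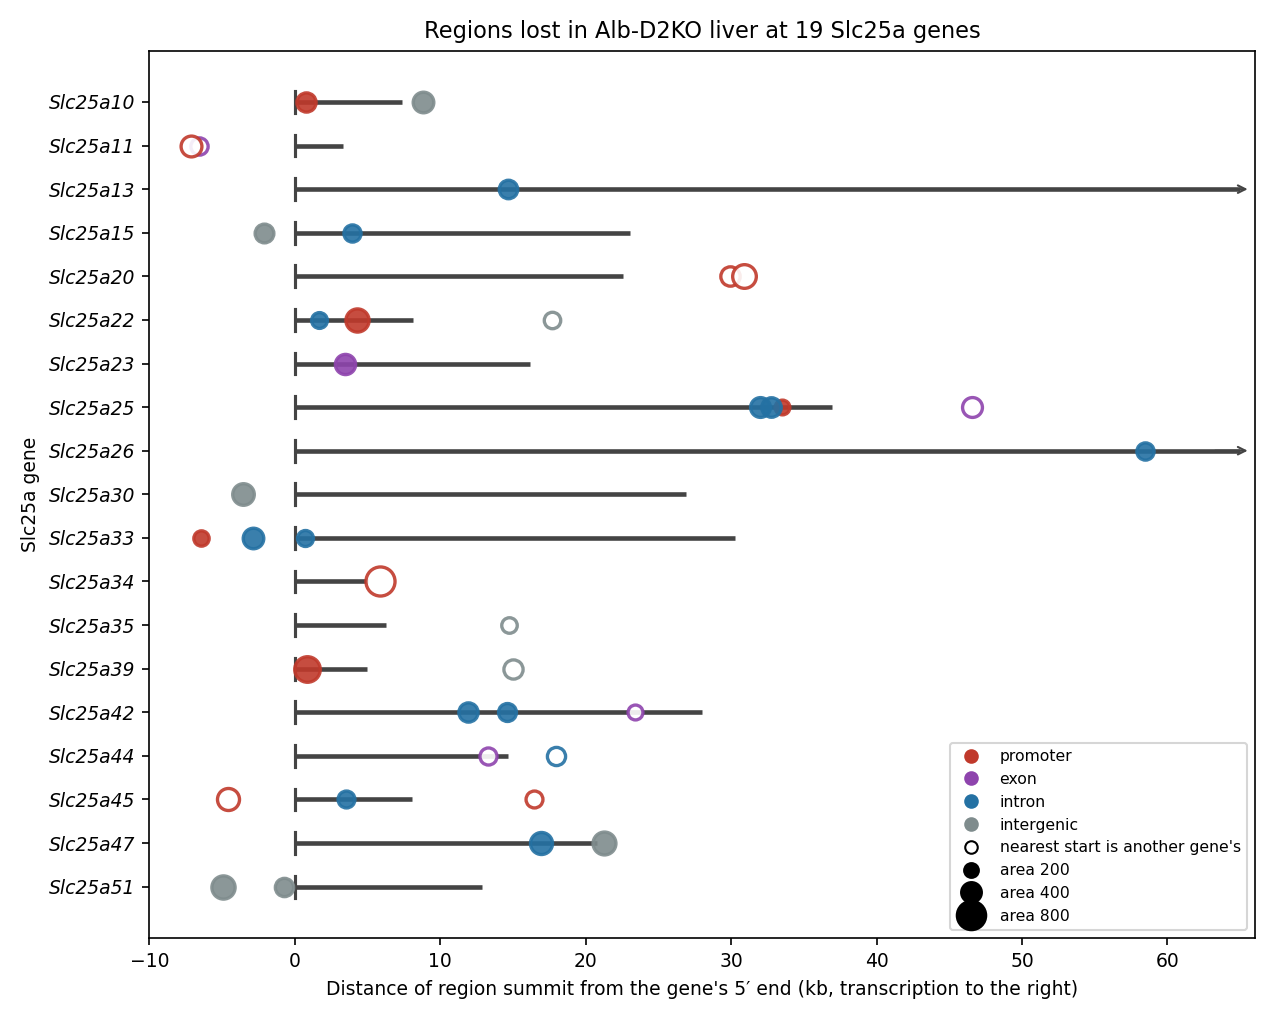
The 38 RCAs at 19 Slc25a genes by distance of the summit from the gene's 5′ end (kb, horizontal axis), with the gene body as a dark line that runs on past the axis for the long Slc25a13 and Slc25a26. Colour is the class, symbol size the area under the −log10 p curve in control liver, and open symbols are the 14 RCAs whose nearest protein-coding start belongs to another gene.

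The 19 genes held 38 distinct RCAs, 18 of them in the gene body and 20 outside. For 24 of the 38 the nearest protein-coding start was that of the Slc25a gene, and 13 of these 24 lay upstream of it. Of the same 24, 12 were intronic, 6 intergenic, 5 of the promoter class (within 200 bp of any annotated transcript start) and 1 exonic. Only 9 RCAs, at 6 genes (Slc25a10, Slc25a22, Slc25a25, Slc25a33, Slc25a39 and Slc25a51), had their summit within 1 kb of a start of their own gene.

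Slc25a39, which brings glutathione into mitochondria, had the strongest RCA at a start of its own. It spanned 480 bp at chr11:102406724-102407203 (mm10) and covered noncoding exon sequence including 5′ UTR. Its area was 602 and its summit −log10 q was 3.67. The summit lay 171 bp upstream of an annotated start and 820 bp into the gene record, so that start is an internal one. Area is the sum of −log10 p along the region in the pooled control call, so it grows with both width and signal, and this region ranked 175 of 8031. The other RCA assigned to Slc25a39, with an area of 339, lay 9839 bp outside the gene and 454 bp from the start of Rundc3a.

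Slc25a22 had an RCA of 554 bp at chr7:141433528-141434081 that overlapped an annotated start, with an area of 495 and a summit −log10 q of 3.19. Its summit was 360 bp downstream of that start and 4282 bp into the gene record, so that start is an internal one. An intronic RCA with an area of 229.7 lay 860 bp upstream of another internal start, and an intergenic one with an area of 249 lay 9214 bp outside the gene.

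Slc25a25 carried a cluster of RCAs deep in the gene. A promoter-class RCA of 466 bp at chr2:32417504-32417969 had its summit 90 bp upstream of an internal start, with an area of 200.2 and a summit −log10 q of 2.39, and this was the weakest of the 38. Intronic RCAs with areas of 351 and 361 followed on the upstream side after gaps of 415 and 473 bp, and all 3 lay over 30 kb downstream of the outermost 5′ end (31954 to 33525 bp). The fourth, with an area of 363, was in the 3′ UTR of Ptges2, 9483 bp outside Slc25a25.

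Slc25a10, the dicarboxylate carrier, had an RCA of 385 bp at chr11:120492489-120492873 with an area of 340.0 and a summit −log10 q of 3.54. It was in an intron of Slc25a10 with its summit 669 bp downstream of a start, and its promoter class came from a start of the antisense transcript Gm11788. The other RCA of Slc25a10 was intergenic, 1074 bp past the gene's 3′ end, with an area of 392.1. At Slc25a33 too the RCA of promoter class, with an area of 216, was at the start of a noncoding transcript, and it lay 6473 bp upstream of the gene's start, at a start of Gm13073. The other RCAs of Slc25a33, with areas of 235 and 389, lay 688 bp downstream and 2877 bp upstream of its start. For Slc25a51, which carries NAD, both RCAs were intergenic and upstream, at 740 bp with an area of 308 and at 4936 bp with an area of 497 (chr4:45413564-45414169, 606 bp, summit −log10 q 3.32). Slc25a47, a carrier of largely liver-restricted expression, held the widest RCA of the family. It was 1041 bp long, began 33 bp past the gene's 3′ end and had an area of 483, and another of 448 lay in an intron 1856 bp downstream of an annotated start.

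The other RCAs nearest to a carrier's own start lay farther from it. Slc25a15 had an intronic RCA (area 272) 3896 bp downstream and an intergenic one (area 324) 2133 bp upstream. Slc25a13 had an intronic RCA (area 315) whose nearest own start was 11225 bp away. Slc25a26 had an intronic RCA (area 274) 19392 bp from the nearest own start. Slc25a23 had an RCA in a coding exon with an area of 377, 1043 bp upstream of an internal start, and Slc25a30 had an intergenic RCA with an area of 429.7, 3563 bp upstream. Slc25a42 had intronic RCAs with areas of 297 and 342 at 14509 and 11871 bp from its start, and an exonic RCA with an area of 204 that was nearest to the start of Tmem161a. Slc25a45 had an intronic RCA with an area of 263, 2686 bp downstream of a start, and RCAs with areas of 447 and 263 at the starts of its neighbours Frmd8 and Tigd3, 4340 and 8196 bp outside the gene.

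The RCAs with a summit within 1 kb of a start of their own carrier are shown as sequence, since these lay at or beside the starts. Of the 9, 8 had bases outside annotated exons around the summit. They are the plus strand of GRCm38.p6 (mm10), 5′ to 3′, limited to 300 bases around the summit and to bases outside annotated exons, and each name gives the distance of the summit from the nearest start of that gene. Capitals mark GGGCGG (the core bound by SP and KLF factors), AGGTCA (the core motif of nuclear receptors, the thyroid hormone receptors among them) and CAAAGTCCA (a site of HNF4, a hepatocyte factor), or their reverse complements.
Slc25a10 669 bp downstream, chr11:120492489-120492733: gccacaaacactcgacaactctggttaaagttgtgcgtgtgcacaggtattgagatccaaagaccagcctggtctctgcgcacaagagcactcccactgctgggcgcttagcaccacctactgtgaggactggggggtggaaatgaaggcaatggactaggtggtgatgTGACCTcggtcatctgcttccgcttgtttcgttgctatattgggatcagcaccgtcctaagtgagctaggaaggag
Slc25a22 860 bp upstream, chr7:141436107-141436350: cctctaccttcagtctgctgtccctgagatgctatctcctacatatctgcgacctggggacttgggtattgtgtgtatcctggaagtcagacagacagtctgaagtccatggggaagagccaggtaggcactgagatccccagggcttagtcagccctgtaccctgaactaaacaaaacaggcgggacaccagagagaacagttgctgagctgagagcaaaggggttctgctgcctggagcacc
Slc25a25 90 bp upstream, chr2:32417877-32417969: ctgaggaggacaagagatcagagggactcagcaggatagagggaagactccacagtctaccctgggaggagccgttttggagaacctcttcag
Slc25a25 894 bp upstream, chr2:32418574-32418804: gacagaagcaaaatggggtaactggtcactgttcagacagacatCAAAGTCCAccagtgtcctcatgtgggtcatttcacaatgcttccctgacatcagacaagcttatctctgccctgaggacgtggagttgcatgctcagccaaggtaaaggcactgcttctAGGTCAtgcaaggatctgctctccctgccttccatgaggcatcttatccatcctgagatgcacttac
Slc25a25 959 bp downstream, chr2:32419341-32419640: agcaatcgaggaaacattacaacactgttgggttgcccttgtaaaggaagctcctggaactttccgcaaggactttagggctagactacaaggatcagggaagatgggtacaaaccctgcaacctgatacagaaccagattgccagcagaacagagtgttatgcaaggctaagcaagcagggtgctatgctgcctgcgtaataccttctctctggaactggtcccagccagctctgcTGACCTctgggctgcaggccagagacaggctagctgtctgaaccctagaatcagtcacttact
Slc25a33 688 bp downstream, chr4:149773512-149773738: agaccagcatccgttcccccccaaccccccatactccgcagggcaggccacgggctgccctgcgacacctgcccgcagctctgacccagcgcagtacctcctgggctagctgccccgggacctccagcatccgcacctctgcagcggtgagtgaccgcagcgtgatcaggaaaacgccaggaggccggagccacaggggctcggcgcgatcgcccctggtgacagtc
Slc25a39 171 bp upstream, chr11:102406976-102407203: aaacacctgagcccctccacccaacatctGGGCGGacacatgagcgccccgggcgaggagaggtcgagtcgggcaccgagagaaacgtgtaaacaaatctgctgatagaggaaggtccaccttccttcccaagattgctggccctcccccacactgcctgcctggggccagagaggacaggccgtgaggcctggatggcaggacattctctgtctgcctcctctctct
Slc25a51 740 bp upstream, chr4:45409389-45409617: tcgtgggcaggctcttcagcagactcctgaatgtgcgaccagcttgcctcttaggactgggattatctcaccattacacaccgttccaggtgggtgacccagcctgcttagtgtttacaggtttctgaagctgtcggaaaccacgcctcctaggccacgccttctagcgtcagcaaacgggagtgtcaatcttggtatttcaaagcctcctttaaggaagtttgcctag
AGGTCA was in 3 of these 8 sequences, on the minus strand in Slc25a10 and once on each strand in the intronic RCAs of Slc25a25. The RCA of Slc25a25 at 894 bp also held the HNF4 letters, and that of Slc25a39 held the SP and KLF core. The other 4 held none of the motifs searched.

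Across 300 bp at the summits of all 38 RCAs, AGGTCA was present in 10 (26.3%, Wilson 95% interval 15 to 42%), against 30.04% of all 8019 RCAs on these chromosomes. Over whole RCAs the order turned, with AGGTCA in 17 (44.7%) against 34.5%. GGGCGG was present in 5 (13.2% against 17.7%), CAAAGTCCA in 1 (2.63% against 2.62%) and TGCGCATG, the NRF1 core, in 1, the RCA of Slc25a33 at Gm13073 (2.63% against 0.449%). TCAAGGTCA (estrogen-related receptor, which contains AGGTCA), TTGCGCAA (C/EBP) and CCGGAAG (ETS factors) were in 0 of 38, against 1.04%, 0.175% and 3.35% of all RCAs. Both strands were searched, and a match is a description of letters, not a bound site. Apart from the NRF1 core, which rests on 1 RCA, each of these shares had the share of the whole list within its Wilson 95% interval. The median GC content was 52.3% against 51%.

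In 5 of the 19 genes no RCA was nearest to the carrier's own start, and these held some of the largest areas. The largest of all 38, with an area of 778 and rank 38 of 8031, was 831 bp long at chr4:141617380-141618210 with a summit −log10 q of 3.69. It lay 614 bp past the 3′ end of Slc25a34, a carrier of unknown substrate, with its summit 1 bp from a start of Tmem82. At Slc25a20, the carrier that exchanges acyl-carnitines for carnitine, both RCAs lay at the start of Prkar2a, a regulatory subunit of protein kinase A. Their areas were 516 (679 bp, chr9:108692382-108693060, summit −log10 q 2.94) and 345, and they lay 7741 and 7193 bp outside Slc25a20. At Slc25a11 both RCAs (areas 399.5 and 274) lay in or at the start of Pfn1, which encodes the actin-binding protein profilin. The RCA of Slc25a35 (area 222) was 7670 bp from the start of Rangrf, and those of Slc25a44 (areas 305 and 268) were nearest to Pmf1, although the smaller was in the 3′ UTR of Slc25a44. By nearest protein-coding start, 6 of the 11 RCAs of promoter class belonged to other genes (Pfn1, Prkar2a with 2, Tmem82, Frmd8 and Tigd3) and 5 to a Slc25a gene. Among these 5, the RCAs of Slc25a10 and Slc25a33 took their class from the noncoding starts of Gm11788 and Gm13073. The 14 RCAs nearest to another gene's start had a median area of 322, and the 24 nearest to the carrier's own had 341.

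By class, 11 of the 38 RCAs were of the promoter class (28.9%, against 23% of the 6370 RCAs near other protein-coding genes), 13 were intronic (34.2% against 47.0%), 9 intergenic (23.7% against 18.1%) and 5 exonic (13.2% against 11.9%). The Wilson 95% interval for the intronic share ran from 21.2 to 50.1%, so none of the 4 shares was separated from that of other genes by its counting error. The median distance from summit to the nearest start of the assigned gene was 5388.5 bp (95% interval of the median 2686 to 11352 bp). It was 5572 bp for other genes and 4690 bp once these were weighted to the lengths of the Slc25a genes. Measured to the 5′ end of the gene record, the family's median was 10365 bp. For RCAs in the gene body alone, the median distance to the nearest own start was 1449.5 bp (688 to 11871 bp), against 2969.5 bp for other genes (unweighted). Without weighting, the family's median was lower in both comparisons, and with weighting over all RCAs it was higher. The medians of other genes lay inside the family's intervals each time, so these orders were not separated by counting error. Within 200 bp of the nearest own start lay 2 of 38 summits (5.26% against 11.9%, or 13% weighted to length). Within 1 kb lay 9 (23.7% against 23.3%, or 25% weighted) and within 5 kb 19 (50% against 47.1%, or 51.6% weighted). With weighting, the family's share was the lower at each distance, but it was close within 1 kb and 5 kb. No interval was computed for these shares of 38 RCAs. Upstream of the nearest own start lay 16 (42.1% against 40.1%).

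The RCAs of the family had a higher median area and width than those of other genes, but their median area was not separated from that of other genes by its interval. The median area was 339 (95% interval of the median 274 to 377, quartiles 269 and 398) against 279.6 for RCAs of other protein-coding genes, a ratio of 1.21 (0.982 to 1.35). An area of 300 or more was reached by 24 of the 38 (63.2%), against 2631 of 6347 RCAs near other protein-coding genes alone (41.5%). The median width was 414 bp against 334 bp, the area per bp 0.828 against 0.901 and the summit −log10 q 3.12 against 3.14. Per bp the order of the medians was the other way round. The promoter-class RCAs had the highest median, 399.5 against 304.9, followed by the intergenic (339 against 274), the intronic (305 against 271) and the exonic (274 against 279.7).

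**Figure D4:**
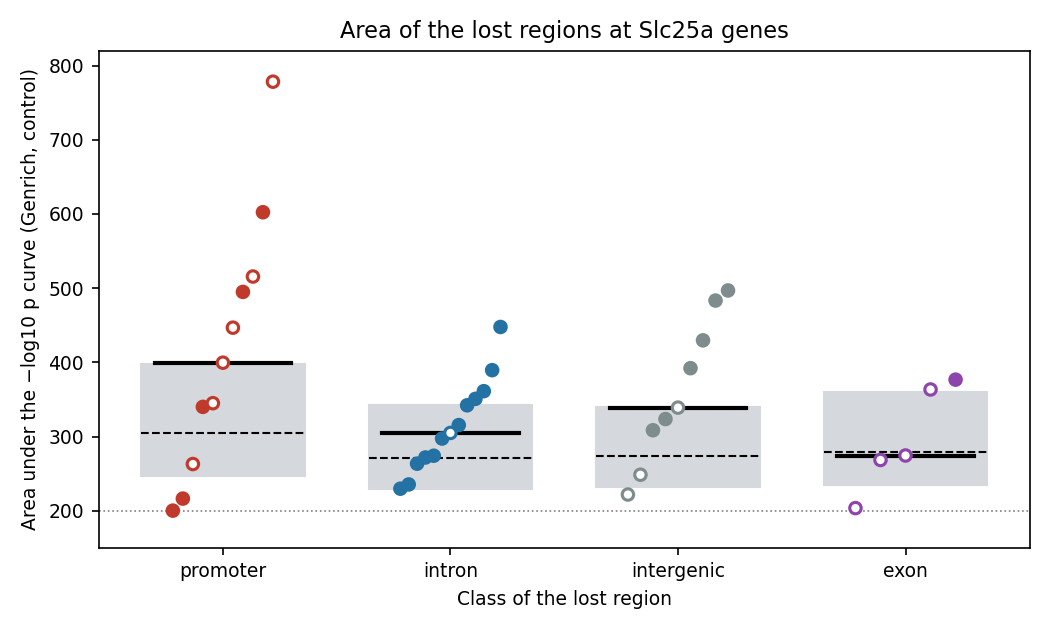
Area under the −log10 p curve (vertical axis) of each RCA at a Slc25a gene, by class. Filled symbols are RCAs nearest to the carrier's own start and open symbols those nearest to another gene's, solid lines are the family's medians, and grey boxes with dashed lines are quartiles and medians for other protein-coding genes. The dotted line at 200 is the lower limit of the list, and the highest point is the RCA of 778 at Slc25a34 and Tmem82.

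Regions of the control call are numbered along the genome, and the highest number on an RCA puts their total at 22368 or more, so a gap in the numbers between neighbouring RCAs gives the control regions that are not RCAs. Around the 5′ end of Slc25a33, 2 such regions lay in the 3209 bp between its flanking RCAs, around that of Slc25a15 1 lay in 5522 bp, and around that of Slc25a45 2 lay in 7554 bp. These carriers thus had RCAs on both sides of a 5′ end with open chromatin left between them. The 5′ end of the gene record lay inside an RCA in 0 of 47 Slc25a genes, against 674 of 21708 other protein-coding genes (3.1%). Between the RCAs on either side of the 5′ end at least 1 such control region lay at all 47 members, against 89.7% of the other genes. Only 5.66% of the other genes had none, since the rest lay in an RCA or lacked an RCA on 1 side (1.57%). These stretches reached 8879180 bp at Slc25a14, where they say little about the gene itself. Within genes with several RCAs, 10 of 19 neighbouring pairs had 0 control regions left between them, and the other 9 had 1 or 2.

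Of the members that lie side by side, some differed and some did not. Slc25a47 and Slc25a29 are 162 bp apart and 2 RCAs were assigned to the former and 0 to the latter. Slc25a23 and Slc25a41 are 2056 bp apart, and the RCA was assigned to Slc25a23 alone. The neighbours Slc25a24 and Slc25a54, and Slc25a5 and Slc25a43, had none. By chromosome, 4 of the 5 members on chromosome 11 had an RCA (33.7% of all protein-coding genes there), 3 of 3 on chromosome 4 (28% of all) and 0 of 4 on the X chromosome (5.27% of all).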

How the data were processed

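ATAC-seq of liver nuclei from 4 control and 4 Alb-D2KO mice was analysed from the 2 deposited region lists. According to the submitters' processing notes, the authors checked reads with FastQC and Picard, aligned them to mm10 with BWA 0.7.17 and called regions with Genrich 0.6. Per the study's methods, duplicates, chimeric and low-quality alignments were removed, regions that appeared in calls of single samples were excluded, all samples were grouped, and lists were made by overlap subtraction, which was read here as 1 pooled call per genotype. The deposited values used were the area under the curve (a signal, Genrich's sum of −log10 p along the region) and the summit −log10 q value that the authors' caller gave. A region just under the caller's limit in Alb-D2KO liver counts as lost. Counts and depths are not in the lists.

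Regions were assigned to protein-coding genes of GENCODE M21 (the study used another release) whose body they overlapped or lay within 10 kb of. Shares of other genes were weighted to the members' lengths in 10 length classes. Each region took the first of promoter (200 bp either side of any start), exon, intron and intergenic. Distances run from the summit to the nearest annotated start of the gene. Intervals are Wilson 95% intervals, or order statistics for medians, and cover counting error alone. Motifs were exact matches in GRCm38.p6. Analyses used Python 3.11.15, pandas 2.3.3, numpy 2.4.6, scipy 1.17.1 and pysam 0.24.0, and the scripts were tested on simulated data. Alternatives changed the distance, region limits, promoter window and length weighting, and 3 were chosen after seeing the data (weighting by neighbouring starts, by chromosome, and leaving out genes in stretches without control regions). Every member with a region was named, and full values were given for genes with a promoter-class region within 1 kb of a start and for the 5 largest areas. The members, gene sets and comparisons were chosen with earlier results of these data known. No test was run, since the lists hold no values per mouse. An item withheld from the text is not reported here. Control mice are described as Cre-expressing from the sample titles and the study's text.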

Additional observations from a re-analysis of the deposited data

How the results depend on the processing

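The share of Slc25a genes with an RCA stayed above that of other protein-coding genes at the same lengths under every alternative run, by 6.87 to 23.1 percentage points (14.7 as reported). In 3 of the 15 alternatives the family's Wilson 95% interval held the share of the other genes, namely RCAs within 50 kb, RCAs within 10 kb of a start, and each RCA given to its nearest start alone. Alternatives that changed only the weighting, or left genes out, kept the family's 19 genes and its interval. These moved the comparison share alone, to between 25.2 and 26.2%, so they could hardly change the outcome. The gap was lowest when RCAs had to lie within 10 kb of a start (27.7% against 20.8%) and highest for RCAs with an area of 300 or more (36.2% against 13%). Within 50 kb the share moved to 57.4% (others 46.3%), and with promoter-class RCAs alone to 19.1% (others 9.84%). Promoter-class RCAs include those at starts of other genes. For an RCA within 200 bp of an own start the share was 6.38% (others 6.15%). The alternatives chosen after seeing the data left the comparison share between 25.6 and 26.2%. A promoter window of 1000 bp raised the promoter-class share from 28.9 to 52.6%. For RCAs in the gene body alone the median distance to an own start fell from 5388.5 to 1449.5 bp (2969.5 bp for other genes, not weighted to length). To the 5′ end of the gene record the median over all RCAs was 10365 bp. The median area was 399.5 for promoter-class RCAs alone, and the ratio of medians to RCAs of other genes went from 1.21 to 0.918 for area per bp. AGGTCA was in 44.7% of whole RCAs (all RCAs 34.5%) against 26.3% of the 300 bp windows (30.04%). No paired analysis was possible because the lists are pooled calls and no result comes from a test, and for the same reason no mouse could be left out. The depth and the spread between mice are unknown, and 38 RCAs leave wide intervals on every share.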
